A study of Mus musculus with 137 samples.

Results

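Old lungs taken 56 days after bleomycin were set against old lungs taken 56 days after saline, gene by gene. The columns were chosen by their titles, which gave 6 bleomycin and 11 saline lungs, 17 libraries beside 120 others in the series. All genes with enough counts were described, 18396 of the 48794 listed. The mice were male C57BL/6J, 21 months old, and received bleomycin at 0.63 mg/kg or saline into the trachea. Day 56 was the last day of a series that followed how scarring resolves and the lung is repaired. Further groups were used for context only: old lungs at day 14 (6 bleomycin, 6 saline), day 21 (6 and 6), day 28 (5 and 5), day 35 (4 and 6) and day 42 (5 and 6), young lungs of 8 to 12 weeks at day 56 (4 given 0.7 mg/kg bleomycin, 5 saline), and 5 old untreated lungs of day 0. Age and dose therefore differed together. RNA came from 20 mg of lung tissue, so all cell types were measured at once, and the part of the lung taken was not stated.

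Bleomycin breaks DNA in lung cells, kills alveolar epithelium and is the usual way to make a mouse lung scar. Fibroblasts then lay down collagens and other matrix, monocytes enter and become macrophages that take up debris and lipid, and alveolar type 2 cells multiply and turn into the flat type 1 cells that exchange gas. In young mice much of the scar is cleared with time, and plasma cells, the antibody-secreting end stage of B cells, are known to gather in lungs after such injury.

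The bleomycin libraries held 20.3 to 22.7 M counted reads and the saline libraries 17.8 to 23.2 M, and every library correlated with the mean of the rest of its group at r of 0.990 to 0.995 across genes. Lung markers were present in every library, with surfactant gene Sftpc at no less than 12078 CPM (a count relative to the effective size of its library) in bleomycin lungs and 10514 CPM in saline lungs. No red blood cell, cardiac muscle, skeletal muscle, adipocyte or thymus gene was called, and 4 of the 10 thymus genes had enough counts to be tested. Of 8 tested genes of cartilage and airway wall 2 were lower in bleomycin lungs. The summed level of 10 cardiac muscle genes was 101.5 to 539 CPM in bleomycin lungs and 90.8 to 836 CPM in saline lungs. Of their log2 fold changes 0 were above 0, with a median of −0.53. The numbers in the library titles formed 2 runs, which the labels do not describe as batches. The first held 3 bleomycin and 6 saline lungs and the second 3 bleomycin and 5 saline lungs. In the first run a number was skipped between the saline and the bleomycin lungs. The cardiac muscle median was −1.25 in the first run, with 2 genes lower, and −0.0003 in the second, with 0 lower. A clock score (mean log2 CPM of 6 genes high at one phase of the day minus that of 2 genes high at the opposite phase) was 1.60 to 2.89 in bleomycin lungs and −0.09 to 2.12 in saline lungs. The clock score thus moved with treatment, and its part in the results was not tested beyond a fit with the score as a term.

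At day 56, 2543 genes passed an adjusted p of 0.05 in old lungs, 13.8% of those tested. Of these 1432 were higher in bleomycin lungs (7.78%) and 1111 lower (6.04%), and 4815 genes had an unadjusted p under 0.05. A change of more than 1 on the log2 scale was reached by 311 of the higher and 83 of the lower genes. In 323 genes every bleomycin lung lay above every saline lung (1.76%) and in 189 every one lay below (1.03%), 2.78% in all. Higher calls were frequent in lists of macrophages, lysosomes, dendritic cells, matrix proteases, type 2 cells, plasma cells and interstitial matrix, and lower calls in lists of lipid-storing fibroblasts, ciliated cells and capillary endothelium. In bulk lung tissue, more or fewer cells of a type and more or less RNA per cell cannot be told apart. With the first run alone 1385 genes passed, of which 1330 (96.03%) had the same direction in the second run. With the second run alone 196 passed, and 165 of the 2543 genes were called in each run. Without bleomycin replicate 2 the count was 1487 and without replicate 5 it was 1627.

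**Figure D1:**
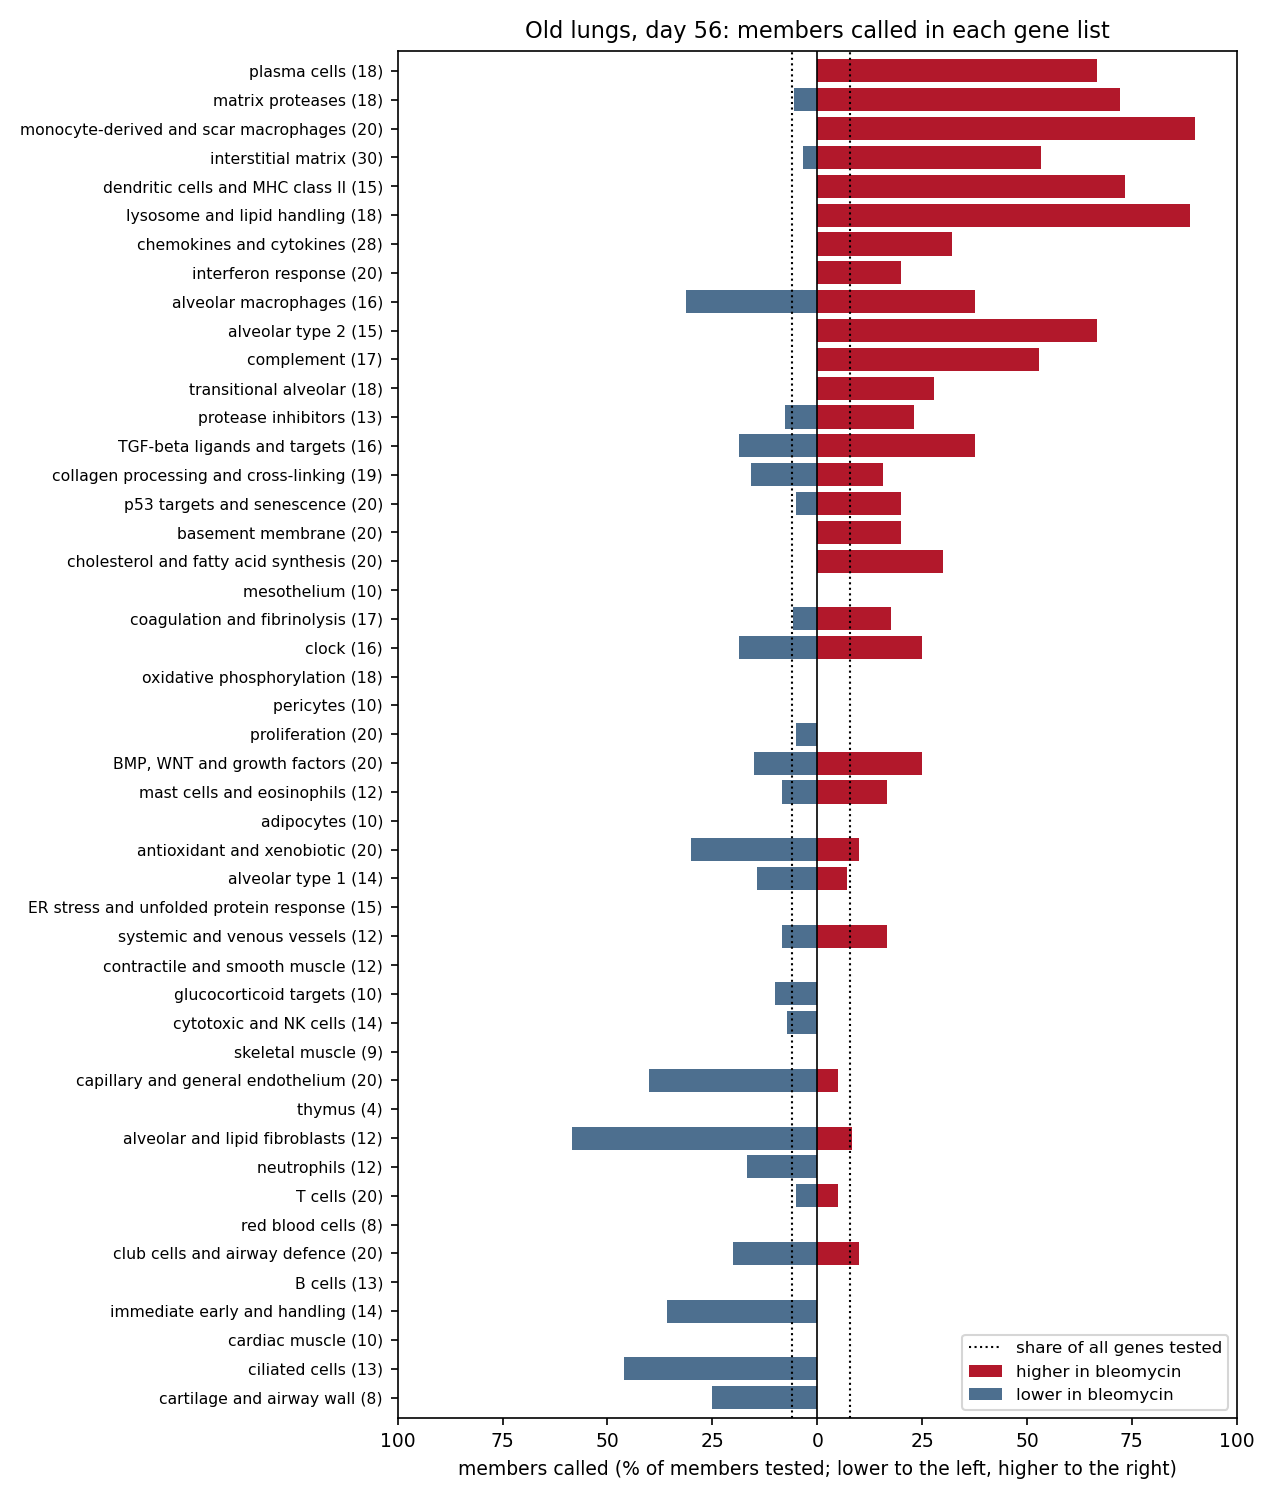
Share of tested members called higher (red, to the right) or lower (blue, to the left) in bleomycin than in saline old lungs at day 56, in percent of the members tested (number in brackets), for 47 gene lists ordered by median log2 fold change. Dotted lines mark the shares over all genes, 7.78% higher and 6.04% lower; macrophage and lysosome lists reach the farthest to the right and the alveolar and lipid fibroblast list the farthest to the left.

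Among genes of the interstitial matrix, the collagen fibres and glycoproteins between cells, 16 of 30 rose and 1 fell, with a median log2 fold change of 0.54 against −0.01 over all genes. Col3a1, a fibrillar collagen (ENSMUSG00000026043, chromosome 1, 45311538 to 45349706 in GRCm38), had 752.7, 1158 and 1541 CPM as lowest, median and highest of the bleomycin lungs, against 489, 557 and 707 CPM in saline lungs. The 2 groups did not overlap, and Col3a1 rose by 0.97 ± 0.18 on the log2 scale (adjusted p = 3.82e-05). Tnc, which encodes tenascin-C, a glycoprotein of healing wounds (ENSMUSG00000028364, chromosome 4, 63959785 to 64047015), had 66.5, 98.2 and 139.1 CPM in bleomycin lungs and 19.4, 23.6 and 33.1 CPM in saline lungs. Every bleomycin lung was above every saline lung, with a rise of 1.98 ± 0.32 (adjusted p = 1.74e-06). Bleomycin replicates 1, 2 and 5 had 127.3 to 139.1 CPM of Tnc, and replicates 3, 4 and 6 had 66.5 to 69.1 CPM.

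Col1a1, the main fibrillar collagen (ENSMUSG00000001506, chromosome 11, 94936224 to 94953042), had 412, 604 and 742 CPM in bleomycin lungs and 317, 359.7 and 436 CPM in saline lungs. In 5 of 6 bleomycin lungs it lay above all saline lungs, and the rise of 0.66 ± 0.24 only just passed (adjusted p = 0.0478). Leaving out 1 of the 17 lungs ended the call in 13 fits for Col1a1 and in 12 for its partner chain Col1a2 (0.58 ± 0.21), and the clock term ended both (adjusted p = 0.188 and 0.158). Cilp, a matrix protein of cartilage that heart fibroblasts make under strain, rose by 1.91 ± 0.33. Col14a1, which binds to collagen fibrils, rose by 0.62 ± 0.10 without overlap, at 63.6, 76.996 and 98.2 CPM in bleomycin and 44.4, 51.2 and 58.9 CPM in saline lungs. The fibronectin gene Fn1 rose by 0.88 ± 0.26 (adjusted p = 0.0124, and 0.0505 with the clock term). The 16 rises became 9 without bleomycin replicate 2, and the list had 9 rises in the first run and 2 in the second run, with medians of 0.65 and 0.48.

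Further matrix genes were outside that list. Col24a1, a minor fibrillar collagen, had 1.302, 2.69 and 3.93 CPM in bleomycin lungs and 0.133, 0.385 and 0.563 CPM in saline lungs, without overlap, and rose by 2.84 ± 0.38 (adjusted p = 1.3e-08). It kept its call in each run of library numbers. P4ha3, a subunit of the enzyme that hydroxylates collagen, rose by 1.80 ± 0.39 without overlap, while Plod2, which hydroxylates collagen lysines for cross-links, fell by 0.41 ± 0.11 and Pcolce2, an enhancer of procollagen cleavage, fell by 0.60 ± 0.18. Among 19 genes of collagen processing 3 rose and 3 fell (1 without bleomycin replicate 2, where Pcolce2 was among those lost, and 0 in either run alone). Of 20 basement membrane genes 4 rose (2 without saline replicate 3) and none fell, among them the laminin chain Lama1 at 16.7, 19.7 and 22.3 CPM in bleomycin and 7.76, 10.2 and 12.7 CPM in saline lungs, a rise of 0.95 ± 0.26 without overlap.

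Contractile genes, which mark myofibroblasts and smooth muscle, did not pass at all: 0 of 12 were called, with a median of −0.16. Acta2, smooth muscle actin, had 120.3, 168 and 227 CPM in bleomycin and 130.3, 184 and 258 CPM in saline lungs, a difference of −0.18 ± 0.15 (adjusted p = 0.495). Postn, a matrix protein of activated fibroblasts, differed by 0.07 ± 0.08 (adjusted p = 0.636). With the compared groups alone 1 contractile gene was lower, in a fit that called 2012 genes lower over all genes.

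Fibroblasts of the alveolar wall that store lipid had the largest share of falls: 7 of 12 genes of this list fell and 1 rose, with a median of −0.34. Slc7a10, an amino acid transporter used as a marker of these cells, had 8.67, 14.4 and 26.5 CPM in bleomycin lungs and 38.6, 48.5 and 60.2 CPM in saline lungs. The groups did not overlap and Slc7a10 fell by 1.59 ± 0.33 (adjusted p = 0.00018). Limch1 and the carboxylesterase Ces1d fell by 0.31 ± 0.09 and 0.38 ± 0.11, also without overlap. Plin2, which coats lipid droplets in many cell types, macrophages among them, was the member that rose (0.55 ± 0.10). The list had 2 falls in the first run and 0 in the second run, with medians of −0.37 and −0.29. It had 5 falls without bleomycin replicate 2, and 3 with untreated lungs in place of saline (median −0.15). Slc7a10 lost its call in the second run alone, Limch1 in each run alone, and Ces1d in the second run alone and with the clock term.

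Genes that cut matrix rose together in these lungs. Of 18 proteases 13 rose, 7 of them without overlap, and 1 fell, and the list median was 0.95. Mmp2, the gelatinase of fibroblasts, had 198, 294 and 424 CPM in bleomycin lungs and 124.1, 138.5 and 171 CPM in saline lungs and rose by 1.102 ± 0.14 (adjusted p = 7.34e-09). Mmp19 had 52.8, 93.9 and 136.3 CPM against 27.8, 30.5 and 35.6 CPM in saline lungs and rose by 1.54 ± 0.19. In both genes the bleomycin lungs lay above all saline lungs. Mmp12, the macrophage elastase (ENSMUSG00000049723, chromosome 9, 7344381 to 7369499), had 25.95, 76.04 and 83.1 CPM in bleomycin and 8.12, 14.97 and 23.8 CPM in saline lungs, a rise of 2.03 ± 0.35 without overlap. The lysosomal proteases Ctsd (1.18 ± 0.16) and Ctss (1.24 ± 0.16) rose as well, and the gelatinase of neutrophils, Mmp9, fell by 0.81 ± 0.28. That fall lost its call with the clock term (adjusted p = 0.114) and in each of 6 fits that left out a lung (bleomycin replicate 1, 2, 3 or 5, saline replicate 1 or 2). Of 13 protease inhibitors 3 rose (1 without bleomycin replicate 1) and 1 fell, and Timp1, which blocks many matrix proteases, rose by 1.29 ± 0.34 without overlap.

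Signals that act on fibroblasts moved in both directions. Of 16 TGF-beta ligands, receptors and targets 6 rose and 3 fell, with the receptor Tgfbr1 higher by 0.51 ± 0.07, the ligand Tgfb3 higher by 0.53 ± 0.11 and the target Ccn1 lower by 0.85 ± 0.22. Of 20 genes of BMP, WNT and other growth factors 5 rose and 3 fell (1 without bleomycin replicate 2). Igf1, the growth factor that macrophages and fibroblasts secrete, had 24.3, 50.7 and 80.3 CPM in bleomycin lungs and 12.6, 17.99 and 21.5 CPM in saline lungs and rose by 1.61 ± 0.23 without overlap (adjusted p = 7.07e-08). Grem1, a BMP antagonist, had 1.302, 3.48 and 8.05 CPM in bleomycin and 0.22, 0.721 and 1.49 CPM in saline lungs and rose by 2.35 ± 0.53, and Sfrp1, a WNT inhibitor, rose by 1.17 ± 0.23. Wnt2, a WNT ligand of lung mesenchyme, fell by 0.70 ± 0.14.

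Macrophages that arise from monocytes and gather in scars were represented by raised transcripts throughout: 18 of 20 genes of this list rose and none fell, with a median of 0.71. Spp1, the secreted protein osteopontin (ENSMUSG00000029304, chromosome 5, 104435118 to 104441050), had 213, 1018 and 1451 CPM in bleomycin lungs and 149.04, 180.3 and 217 CPM in saline lungs. In 5 of 6 bleomycin lungs Spp1 exceeded all saline lungs, and the lowest, replicate 6, lay inside their range. It rose by 2.32 ± 0.27 (adjusted p = 2.94e-10).

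Trem2, a receptor for lipids on these macrophages (ENSMUSG00000023992, chromosome 17, 48346401 to 48354147), had 17.2, 37.5 and 44.4 CPM in bleomycin lungs and 6.94, 9.31 and 12.8 CPM in saline lungs, a rise of 1.83 ± 0.19 (adjusted p = 2.57e-12). Gpnmb, a membrane protein of lipid-laden macrophages (ENSMUSG00000029816, chromosome 6, 49036546 to 49070929), had 73.4, 251 and 301 CPM in bleomycin and 42.002, 50.6 and 66.4 CPM in saline lungs and rose by 1.999 ± 0.23. Neither gene overlapped between the groups. Apoe, the lipid carrier, rose by 0.63 ± 0.12 and C1qb, a chain of complement C1q, by 1.09 ± 0.18, and each overlapped in 2 bleomycin lungs. The list had 15 rises in the first run and 5 in the second run, with medians of 0.81 and 0.70.

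**Figure D2:**
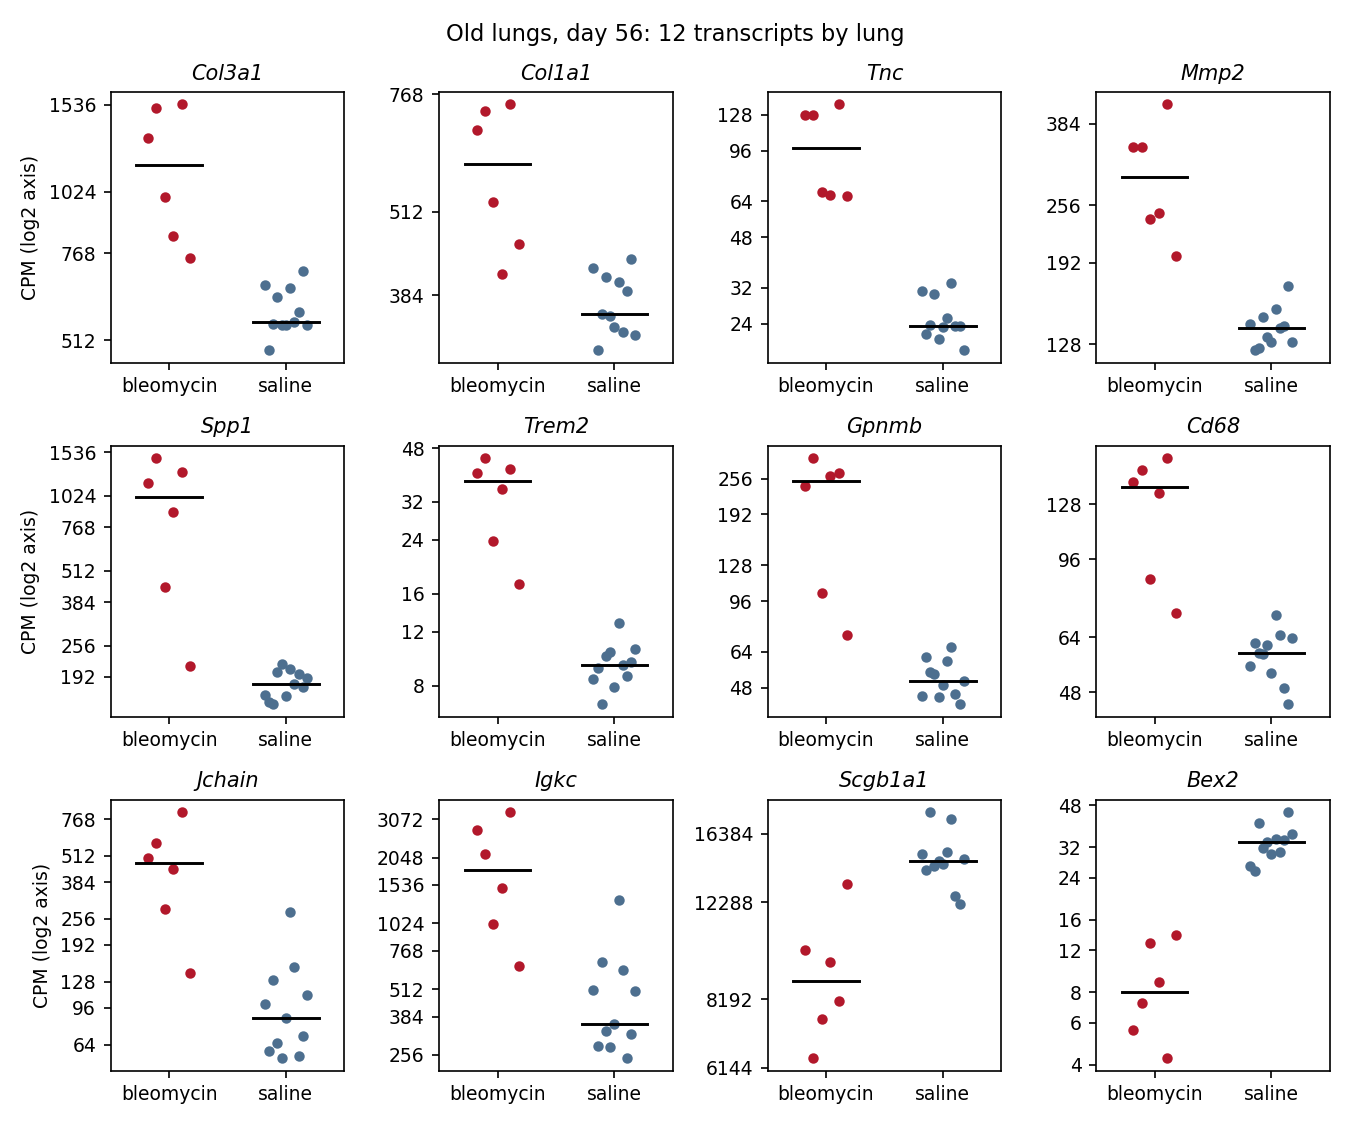
Level in CPM (log2 axis) of 12 transcripts in each of 6 bleomycin (red, left) and 11 saline (blue, right) old lungs at day 56; each point is 1 lung and the line is the median. Col3a1, Tnc, Mmp2, Trem2, Gpnmb, Cd68 and Bex2 do not overlap between the groups, and Col1a1, Spp1, Jchain, Igkc and Scgb1a1 do.

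Genes of lysosomes and lipid handling rose in 16 of 18 cases and none fell, with a median of 0.49. Cd68, a lysosomal membrane protein of macrophages, had 72.4, 139.7 and 162 CPM in bleomycin lungs and 45.1, 59.0 and 71.9 CPM in saline lungs and rose by 1.102 ± 0.15 without overlap. Psap, which helps to break down sphingolipids, had 1438, 2402 and 2787 CPM against 1172, 1286 and 1399 CPM in saline lungs and rose by 0.82 ± 0.12, also without overlap. The lysosomal acid lipase Lipa rose by 0.74 ± 0.10 and the proton pump subunit Atp6v0d2 by 1.12 ± 0.15. The list kept 15 or 16 rises whichever of the 17 lungs was left out. It had 14 rises in the first run and 5 in the second run, with medians of 0.51 and 0.42.

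Because these genes moved together, the 250 bases before their RefSeq gene starts (GRCm38.p6) were searched for TCACGTG on either strand, a core of the sites bound by the lysosomal regulator TFEB. Of 18 members 12 had an entry and 1 of them held the motif, 8.33%, beside 5.16% of the 12878 tested genes with an entry. That member was Lamp1, a main protein of the lysosomal membrane, with 4 matches and a rise of 0.19 ± 0.05. Cd68, with a rise of 1.102 ± 0.15, held none. Both are shown 5′ to 3′ on the strand of the gene, with matches in capitals, to set a member with the motif beside one without it.
Lamp1 at chr8:13158911-13159160, plus strand: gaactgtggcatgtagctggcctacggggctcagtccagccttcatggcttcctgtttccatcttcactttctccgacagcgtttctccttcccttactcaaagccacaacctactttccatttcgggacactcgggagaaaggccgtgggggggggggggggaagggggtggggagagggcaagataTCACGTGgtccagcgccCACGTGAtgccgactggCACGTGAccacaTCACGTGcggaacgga
Cd68 at chr11:69666171-69666420, minus strand: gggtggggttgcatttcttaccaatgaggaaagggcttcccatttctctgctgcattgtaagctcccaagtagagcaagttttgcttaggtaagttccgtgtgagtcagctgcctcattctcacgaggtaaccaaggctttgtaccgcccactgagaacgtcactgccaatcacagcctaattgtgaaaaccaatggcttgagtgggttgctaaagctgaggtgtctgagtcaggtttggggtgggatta

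The resident macrophages of the airspace had a mixed pattern, with 6 of 16 genes higher and 5 lower. Their log2 fold changes had a median of 0.36, and the mean was 0.08. Of the falls 3 did not overlap between groups. Marco, a scavenger receptor, had 9.06, 12.7 and 15.1 CPM in bleomycin lungs and 16.99, 26.4 and 45.1 CPM in saline lungs and fell by 1.12 ± 0.36 (adjusted p = 0.0235), a call lost without bleomycin replicate 2 and in each run alone. Fabp1, a fatty acid carrier, had 0.623, 0.836 and 2.17 CPM against 2.23, 3.36 and 7.08 CPM in saline lungs and fell by 1.67 ± 0.35. Krt79 fell by 1.17 ± 0.30. The members that rose included the integrin Itgax (0.89 ± 0.12) and the mannose receptor Mrc1 (0.64 ± 0.13), which monocyte-derived cells also express. Ctsd and Atp6v0d2, given above, were also among these rises, and are shared with the protease and the lysosome list.

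Genes of antigen presentation were higher too, with 11 of 15 dendritic cell and MHC class II genes rising and none falling, and a median of 0.50. Cd74, the chaperone of MHC class II, had 1559, 2104 and 2528 CPM in bleomycin lungs and 1098, 1331 and 1793 CPM in saline lungs, a rise of 0.56 ± 0.12. Fscn1, an actin bundler of mature dendritic cells, rose by 0.97 ± 0.14, and Itgae, an integrin of CD103+ dendritic cells and some T cells, by 0.94 ± 0.16, both without overlap. The 11 rises were 10 in the first run and 0 in the second run, with medians of 0.71 and 0.26. Of 17 complement genes 9 rose and of 28 chemokine and cytokine genes 9 rose (5 without bleomycin replicate 1), with none lower in either list. The complement list had 8 rises in the first run and 1 in the second run, and the chemokine and cytokine list 7 and 2. Ccl22, a chemokine for regulatory T cells, rose by 0.93 ± 0.17 without overlap, Ccl6 by 0.94 ± 0.16 and the alarmin Il33 by 0.65 ± 0.11. Foxp3, the factor of regulatory T cells, rose by 1.12 ± 0.30. Tnfrsf9, a receptor of activated T cells, had 2.70, 4.87 and 5.90 CPM against 0.932, 1.24 and 2.05 CPM in saline lungs and rose by 1.73 ± 0.30 without overlap.

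Plasma cell genes were among the largest rises. Of 18 genes 12 rose and none fell, with a median of 1.13. Jchain, which joins IgA and IgM units (ENSMUSG00000067149, chromosome 5, 88519809 to 88527891), had 140.3, 472 and 829 CPM in bleomycin lungs and 55.0, 85.6 and 275 CPM in saline lungs. In 5 of 6 bleomycin lungs it exceeded all saline lungs, and the rise was 2.14 ± 0.43 (adjusted p = 0.000136). The kappa light chain Igkc had 654, 1806 and 3304 CPM against 247, 356 and 1307 CPM in saline lungs and rose by 1.93 ± 0.42. Heavy chains Ighm (2.05 ± 0.48), Igha (2.05 ± 0.52), Ighg2b (2.17 ± 0.58) and Ighg3 (2.21 ± 0.71) rose, as did the light chain Iglc1 (2.40 ± 0.43). Ighg1 had 5.21, 16.7 and 39.2 CPM in bleomycin and 0.843, 10.7 and 58.7 CPM in saline lungs, a difference of 0.07 ± 0.77 (adjusted p = 0.973). Outside the antibody genes Mzb1, a plasma cell chaperone, rose by 1.11 ± 0.34, Tnfrsf17, the survival receptor BCMA, by 1.14 ± 0.38 and the secretion factor Derl3 by 1.04 ± 0.29.

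Variable segments of the antibody genes followed. Of 177 tested segments 90 were higher and 0 lower, 48 of 89 in the heavy chain locus, 39 of 85 in the kappa locus and 3 of 3 in the lambda locus. Their medians were 1.91, 1.63 and 1.72. Summed over the segments, bleomycin lungs had 449 to 2088 CPM and saline lungs 151 to 828 CPM, so the ranges overlapped. Many segments are near copies of each other, and reads could be split or lost between them. T cell receptor segments did not move in this way, with 0 of 17 higher and 1 lower. B cell genes were not called, 0 of 13, with a median of −0.43 and 1 estimate above 0. Cd79a, a chain of the B cell receptor, was at −0.30 ± 0.33 (adjusted p = 0.631). For plasma cells 6 members rose in the first run and 1 in the second run, with medians of 1.24 and 1.01.

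Other lymphocyte and granulocyte lists had few calls. Their medians were −0.38 for T cells, −0.24 for cytotoxic and NK cells, −0.34 for neutrophils and −0.01 for mast cells and eosinophils. Of 20 T cell genes 1 rose and 1 fell, of 14 cytotoxic and NK cell genes 1 fell, of 12 neutrophil genes 2 fell, and of 12 mast cell and eosinophil genes 2 rose and 1 fell. The neutrophil falls were 0 with the clock term and 0 without saline replicate 1, and the mast cell and eosinophil list had 1 rise without bleomycin replicate 1 and 3 falls without bleomycin replicate 4. Gzmk, a granzyme of T cells that accumulate with age, differed by 0.09 ± 0.53 (adjusted p = 0.944). Saline replicate 6 had the highest T cell score of the 17 lungs, 4.27, and without that lung the falls of Lef1, a factor of naive T cells, and Klrb1c, the receptor NK1.1, lost their calls. Of 20 proliferation genes 0 rose and 1 fell, and the division marker Mki67 had 9.93, 15.7 and 16.6 CPM in bleomycin and 6.48, 8.84 and 40.1 CPM in saline lungs (0.13 ± 0.33, adjusted p = 0.862).

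Interferon response genes rose in 4 of 20 cases, although all 20 estimates were above 0, with a median of 0.38. Oas2, an antiviral enzyme, had 35.4, 42.1 and 107.4 CPM in bleomycin and 20.5, 29.3 and 47.4 CPM in saline lungs and rose by 0.78 ± 0.22. The highest value belonged to bleomycin replicate 1, and without that lung 0 of the 20 genes were called.

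**Figure D3:**
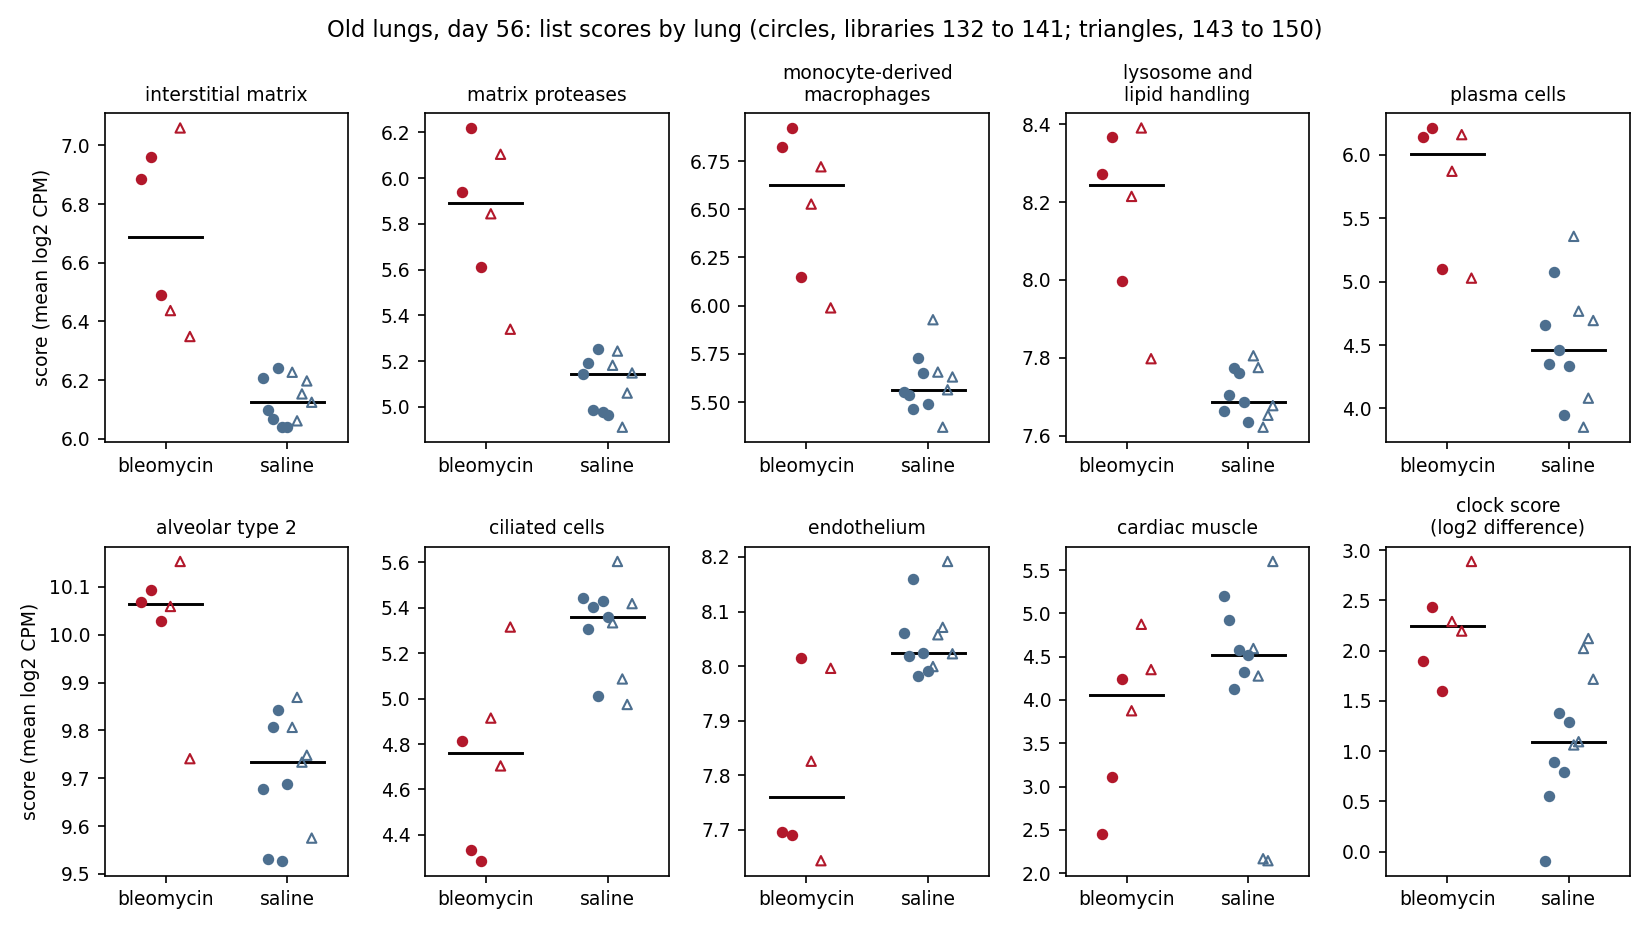
Mean log2 CPM of 9 gene lists and the clock score in each old lung at day 56, bleomycin (red, left) and saline (blue, right), with the median as a line; filled circles are the first run of library numbers and open triangles the second. Matrix, protease and macrophage scores do not overlap between the groups, plasma cell, lysosome, type 2 cell, ciliated cell, endothelial and cardiac scores do, and bleomycin replicates 3 and 6 lie nearest to saline on the macrophage score.

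In the alveolar epithelium, type 2 cell genes were higher. Of 15 genes 10 rose and none fell, with a median of 0.32. Sftpd, a surfactant protein of host defence, had 874, 1147 and 1258 CPM in bleomycin lungs and 586, 719.8 and 876 CPM in saline lungs and rose by 0.62 ± 0.11. Lyz2, the lysozyme of type 2 cells and of macrophages, rose by 0.60 ± 0.14, and Napsa, the protease that matures surfactant, by 0.39 ± 0.09. Sftpc itself was at 12078, 15589 and 16718 CPM against 10514, 13096 and 14807 CPM in saline lungs and was not called (0.25 ± 0.16, adjusted p = 0.321). Enzymes of lipid synthesis, which type 2 cells use for surfactant, rose in 6 of 20 cases and none fell, among them Scd1 (0.66 ± 0.15) and Fasn (0.49 ± 0.10). Without bleomycin replicate 5 there were 6 type 2 rises and not 10. The type 2 list had 7 rises in the first run and 1 in the second run, with medians of 0.41 and 0.24.

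Of 14 type 1 cell genes 1 rose and 2 fell (1 without bleomycin replicate 1), and Ager, the receptor that marks these cells, had 1914, 2031 and 2094 CPM in bleomycin and 1632, 1922 and 2155 CPM in saline lungs (0.08 ± 0.12, adjusted p = 0.758). Cldn18, a tight-junction protein, rose by 0.41 ± 0.10. Hopx fell by 0.44 ± 0.15 without overlap, and the call was lost with the clock term and without bleomycin replicate 1, 2 or 5. Genes of the transitional state between type 2 and type 1 cells rose in 5 of 18 cases, and none fell. Sprr1a, a cornified envelope protein, had 1.45, 2.18 and 4.27 CPM in bleomycin lungs and 0.384, 0.479 and 1.29 CPM in saline lungs, without overlap, and rose by 2.02 ± 0.35. Clu, the chaperone clusterin, rose by 0.65 ± 0.11 without overlap. The keratin Krt8 (0.20 ± 0.11) and the claudin Cldn4 (0.47 ± 0.34), which define this state, were not called (adjusted p = 0.244 and 0.396). Of 20 p53 and senescence genes 4 rose (2 without bleomycin replicate 5) and 1 fell, and neither Cdkn1a (0.18 ± 0.12) nor Cdkn2a (0.66 ± 0.26, adjusted p = 0.0804) was called.

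Some airway genes were lower, 4 of 20 of club cells and airway defence and 6 of 13 of ciliated cells. The club cell secretory protein Scgb1a1 (ENSMUSG00000024653, chromosome 19, 9083636 to 9087958) had 6394, 8852 and 13289 CPM in bleomycin lungs and 12199.9, 14592 and 17922 CPM in saline lungs. In 5 of 6 bleomycin lungs Scgb1a1 was below all saline lungs, and it fell by 0.69 ± 0.19 (adjusted p = 0.0057). The 4 falls of the club cell list (1 without bleomycin replicate 2, 7 without replicate 6) stood beside 2 rises, the iron-binding protein Lcn2 (1.63 ± 0.22, without overlap) and the mucin Muc1 (0.56 ± 0.09). No ciliated cell gene rose, and the list had a median of −0.56, with Tekt1, a part of the cilium shaft, lower by 0.68 ± 0.20. This list depended on single lungs: 0 fell without bleomycin replicate 2 and 12 without replicate 6. Its median was −0.85 in the first run and −0.30 in the second run, and 1 gene fell with the clock term. Among 8 tested genes of cartilage and airway wall, a list that shares the gene Chad with the club cell list, 2 fell, with a median of −0.57. The cartilage list had 1 fall in the first run (median −0.94), 0 in the second run (median 0.11) and 0 with the clock term.

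Among vessels, 8 of 20 capillary and general endothelial genes fell and 1 rose, with a median of −0.26. Tek, the angiopoietin receptor, had 282, 326 and 386 CPM in bleomycin lungs and 392, 427 and 492 CPM in saline lungs, without overlap, and fell by 0.39 ± 0.09. Eng, a co-receptor for TGF-beta on endothelium, fell by 0.48 ± 0.12, Ednrb, the endothelin receptor of a capillary subtype, by 0.73 ± 0.20 and Car4, the capillary carbonic anhydrase, by 0.38 ± 0.11. Prox1, the lymphatic factor, was the gene that rose (0.71 ± 0.18). Kdr, the VEGF receptor, fell by 0.33 ± 0.12 at an adjusted p of 0.0481, and leaving out 1 lung ended that call in 11 of 17 fits. Without bleomycin replicate 5 the list had 4 falls. In coagulation, the protein C receptor Procr rose by 0.79 ± 0.12, the coagulation factor F7 by 1.03 ± 0.17 and F10 by 0.64 ± 0.19, while thrombomodulin, Thbd, fell by 0.47 ± 0.09. Of 17 genes of coagulation and fibrinolysis these were the 4 called.

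Enzymes that handle foreign compounds and oxidants were mostly lower where called, with 6 of 20 falling and 2 rising. The flavin monooxygenase Fmo2 had 630.4, 814 and 976 CPM in bleomycin lungs and 1037, 1229 and 1319 CPM in saline lungs and fell by 0.58 ± 0.13 without overlap, and Fmo1 fell by 0.60 ± 0.14. Hmox1, the haem-degrading enzyme, rose by 0.78 ± 0.14 without overlap. Without bleomycin replicate 1 this list had 2 falls. Mitochondrial respiration (0 of 18), the unfolded protein response (0 of 15) and pericyte genes (0 of 10) were not called, nor were mesothelial genes (0 of 10). Of mitochondrial RNA genes 2 of 2 for rRNA and 2 of 6 for tRNA were lower and 0 higher, and the cause was not tested. With the groups alone 1 respiration gene and 1 pericyte gene were higher and 1 gene each of the unfolded protein response and of mesothelium was lower. That fit called 2189 genes higher and 2012 lower over all genes, so single calls in a list say little about it.

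The named genes with the largest rises and falls were in part outside these lists. Chl1, a cell adhesion molecule best known from neurons, had 2.35, 5.12 and 11.9 CPM in bleomycin lungs and 0.218, 0.429 and 1.83 CPM in saline lungs and rose by 3.09 ± 0.53 (adjusted p = 6.84e-06). Slc26a4, the anion exchanger pendrin, had 25.8, 45.2 and 59.7 CPM against 7.34, 11.2 and 16.2 CPM in saline lungs and rose by 2.07 ± 0.25. Megf11 rose by 2.68 ± 0.45 and Veph1 by 1.92 ± 0.24. Bex2, a small protein first described in brain, had 4.26, 8.06 and 13.8 CPM in bleomycin lungs and 25.6, 33.7 and 44.8 CPM in saline lungs and fell by 1.94 ± 0.29 (adjusted p = 3.93e-07). Its relative Bex4 fell by 1.303 ± 0.18. Igfbp3, which binds insulin-like growth factors, had 22.7, 39.9 and 58.5 CPM against 58.8, 92.3 and 109.6 CPM in saline lungs and fell by 1.26 ± 0.19. Hes2, a transcription repressor, fell by 1.67 ± 0.31, Gria1, a glutamate receptor subunit, by 1.41 ± 0.30, Grm4, another glutamate receptor, by 1.13 ± 0.22, Cst8 by 1.49 ± 0.31 and Mgam by 1.21 ± 0.32. All 12 of these genes were chosen for having no overlap between the groups. The same rule picked Col24a1, Tnc, P4ha3, Mmp12, Trem2, Gpnmb, Sprr1a, Tnfrsf9, Slc7a10, Marco, Fabp1 and Krt79, given above. Of these Tnc, Mmp12, Trem2 and Gpnmb were also in the fixed panel.

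Clock and immediate early genes moved with treatment as well. Of 16 clock genes 4 rose and 3 fell. Dbp, an output of the clock, had 43.1, 58.4 and 74.9 CPM in bleomycin lungs and 6.16, 23.3 and 48.3 CPM in saline lungs and rose by 1.24 ± 0.29, while the core factor Arntl fell by 0.57 ± 0.11. Of 14 immediate early and handling genes 5 fell and none rose, with a median of −0.50, Fos lower by 0.84 ± 0.27 and Jun by 0.35 ± 0.09. Without bleomycin replicate 2 this list had 1 fall, and 1 fell with the clock term. With the clock score as a term 2035 genes were called over the whole table, 1875 of them shared with the 2543. With that term 15 of 20 macrophage genes, 16 of 18 lysosome genes, 12 of 18 proteases, 10 of 18 plasma cell genes and 9 of 30 interstitial matrix genes rose.

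The bleomycin effects at day 56 and day 14 in old lungs were compared directly, as the signed difference between them. This difference was called in 4866 genes (26.5%), 2000 with a higher effect at day 56 (10.9%) and 2866 with a lower one (15.6%). Because the difference is signed, a fall that eased after day 14 counts as a higher effect. Ciliated cell genes, for one, had 4 higher and 0 lower, with medians of −1.02 at day 14 and −0.56 at day 56. At day 14 itself 10252 genes had been called (55.7%, with 29.3% higher and 26.5% lower), and the share was 42.5% at day 21, 39.7% at day 28 and 29.6% at day 35. The matrix effect was lower at day 56 in 20 of 30 genes and higher in none. Col1a1 stood at 2.14 ± 0.29 above saline at day 14 and 0.66 ± 0.24 at day 56, a difference of −1.48 ± 0.37 (adjusted p = 0.00243), and Col3a1 at 2.02 and 0.97, a difference of −1.05 ± 0.29. Proliferation genes had a lower effect in 16 of 20 cases, with Mki67 at −1.37 ± 0.50. Trem2 differed by −1.41 ± 0.31 (adjusted p = 0.000539), whereas the lower estimates of Spp1 (−1.01 ± 0.43, adjusted p = 0.0671) and Gpnmb (−0.80 ± 0.36, adjusted p = 0.0837) were not called.

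Plasma cell genes ran the other way, with a higher effect at day 56 in 12 of 18 cases. Jchain was −0.55 ± 0.51 relative to saline at day 14, not called, and 2.14 ± 0.43 at day 56, a difference of 2.69 ± 0.68 (adjusted p = 0.00231). Of the 177 variable segments 93 had a higher effect at day 56. At day 14, 39 of them were lower than in saline and 1 was higher. Heart muscle genes Mb and Ckmt2 also had a higher effect at day 56, by 1.77 ± 0.67 and 1.80 ± 0.66, although neither was called at day 56 itself and both had been lower at day 14. The ion channel gene Cacna1h (2.08 ± 0.40) and Derl3 (2.0 ± 0.46) completed the 5 largest above an average log2 CPM of 1, leaving out antigen-receptor genes, predicted genes and pseudogenes. Among antigen-receptor genes Ighm, for one, differed by 3.18 ± 0.76. Under the same limits the 5 largest negative differences were red cell genes, from Hbb-bt at −3.89 ± 1.16 to Hba-a2 at −3.44 ± 1.12, with Alas2, Hbb-bs and Hba-a1 between them. Of these, 4 changed sign without bleomycin replicate 3 of day 14, where the values were 0.076 for Hbb-bt, 0.64 for Alas2, 0.25 for Hba-a1 and 0.12 for Hba-a2.

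**Figure D4:**
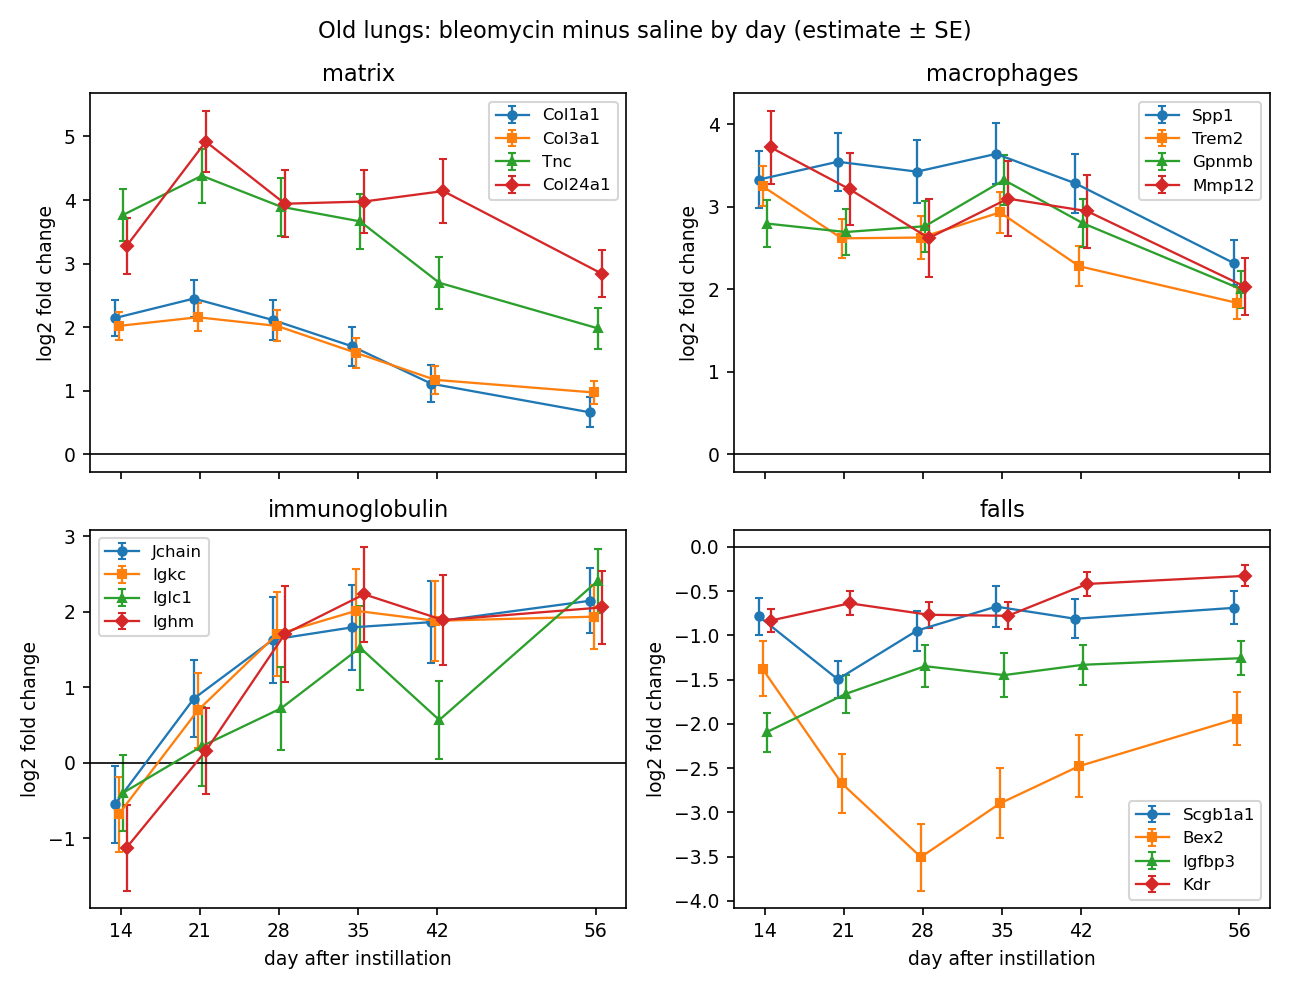
Bleomycin minus saline in old lungs (log2 fold change ± standard error) by day after instillation, for 4 matrix, 4 macrophage, 4 immunoglobulin and 4 lowered genes. Matrix and macrophage genes are lowest at day 56, the immunoglobulin genes lie below 0 at day 14 and between 1.93 and 2.40 at day 56, and the lowered genes remain below 0 on every day.

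Against day 42 the day-56 effect differed in 19 genes (0.103%), 17 with a higher effect at day 56 (0.0924%) and 2 with a lower one (0.0109%), while 3610 genes had been called at day 42 (19.6%, with 9.77% higher and 9.85% lower). Of the 20 genes of the interferon response list 4 were among the 17, Irf7, Zbp1, Oasl2 and Ifi27l2a. Of the named genes Gbp4, a guanylate-binding protein, differed by 1.92 ± 0.43, Zbp1, a sensor of viral nucleic acid, by 1.86 ± 0.42, Ifi27l2a by 1.79 ± 0.37 and the tryptophan-degrading enzyme Ido1 by 2.60 ± 0.55. Gbp4, Zbp1, Ifi27l2a and Ido1 had been lower than saline at day 42, with log2 fold changes of −1.57 for Gbp4 and −1.28 for Zbp1. The kinase gene Src had the lower effect that is no antibody segment (−0.37 ± 0.09). Without replicate 6 of the day-42 saline lungs 0 genes were called, as also without bleomycin replicate 6 or saline replicate 9 of day 56, and without day-42 saline replicate 5 there were 198. Of 30 interstitial matrix genes 22 had risen at day 42 and 16 at day 56, with medians of 0.90 and 0.54, and none differed between the days.

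Whether age altered what was left at day 56 was tested as the old effect minus the young effect. By edgeR 0 of 18396 genes were called, 1056 had an unadjusted p under 0.05, and DESeq2 and a fit on the 4 groups alone each called 3. DESeq2 called Cxcr1, Ighe and Krt6a, and the smaller fit Cxcr1, Wnt7a and Fgf18. The DESeq2 log2 differences were −1.93 for Cxcr1, −18.4 for Ighe and −31.3 for Krt6a. Krt6a had too few counts for the edgeR test. Ighe had an average log2 CPM of −1.60 there and an adjusted p of 0.999, so both rest on very low counts. In young lungs 2982 genes were called (16.2%), 7.91% higher and 8.3% lower. Of the 1432 old rises 880 were called higher in young lungs too, 61.5% of the old and 60.4% of the young list. Of the 1111 old falls 638 were called lower in both, 57.4% of the old and 41.8% of the young list, and 0 genes were called in opposite directions.

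Some estimates lay far apart between the ages without passing after adjustment. Mmp12 was 2.03 ± 0.35 in old and 4.18 ± 0.53 in young lungs, a difference of −2.15 ± 0.63 (adjusted p = 0.673). Ighg1 was 0.07 ± 0.77 in old and 5.06 ± 1.20 in young lungs, a difference of −4.99 ± 1.42 (adjusted p = 0.661). Col1a1 differed by 0.62 ± 0.40, Col3a1 by 0.62 ± 0.31 and Tnc by 0.03 ± 0.55, none called. Of 30 interstitial matrix genes 16 rose in old and 6 in young lungs, with medians of 0.54 and 0.27. Contractile genes fell in 0 of 12 cases in old and 10 of 12 in young lungs, cardiac genes in 0 of 10 and 9 of 10, and mesothelial genes rose in 0 of 10 and 6 of 10. No member of these lists passed the test of the age difference. For the mesothelial factor Bnc1 that difference was −1.0 ± 0.32 (adjusted p = 0.683).

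**Figure D5:**
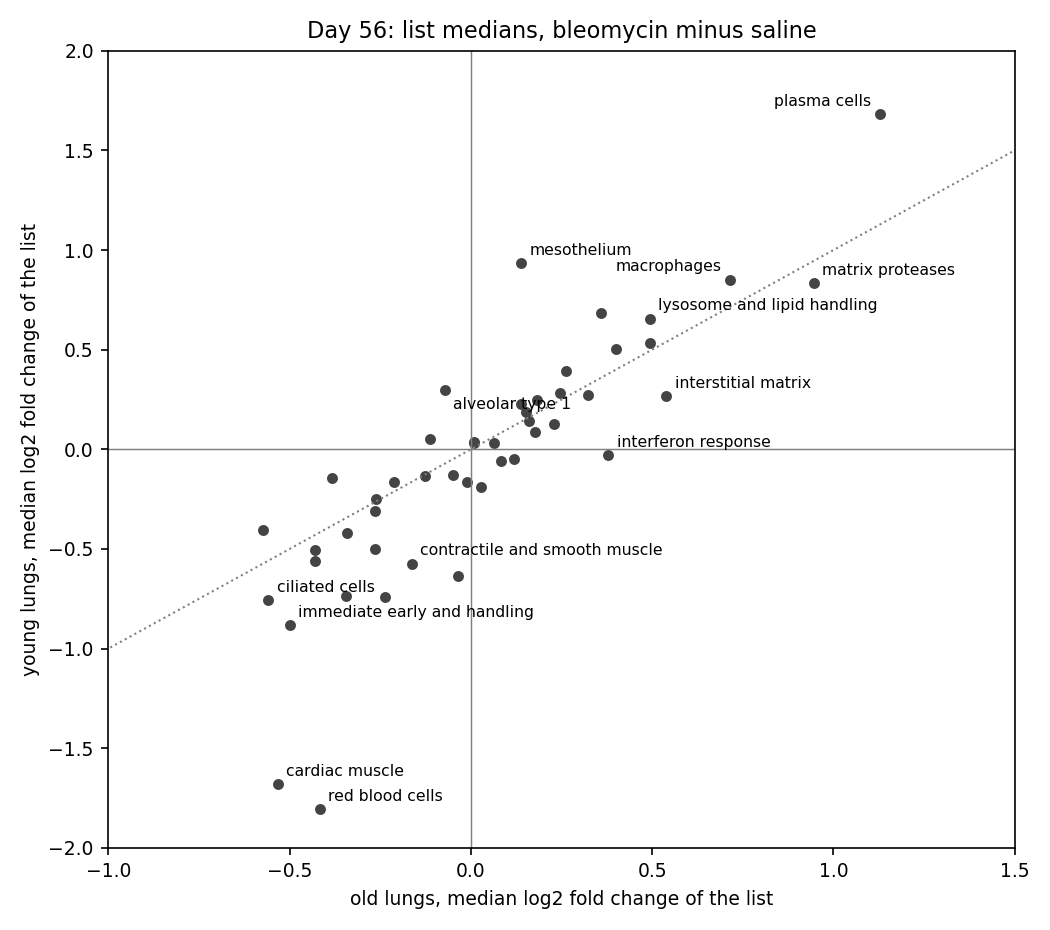
Median log2 fold change, bleomycin minus saline at day 56, of 47 gene lists in old lungs (horizontal axis) and young lungs (vertical axis), with equal values on the dotted line. Plasma cell, macrophage and protease lists are high in both ages; mesothelial genes have medians of 0.14 in old and 0.93 in young lungs, and cardiac genes −0.53 and −1.68.

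Set against the 5 untreated old lungs of day 0 in place of saline, the bleomycin lungs had 3954 called genes (21.5%), 1845 higher (10%) and 2109 lower (11.5%). The macrophage list had 17 rises of 20, the lysosome list 16 of 18, the proteases 13 of 18, the plasma cells 12 of 18 and the interstitial matrix 14 of 30. Interferon genes rose in 13 of 20 cases in that comparison and in 4 of 20 against saline, and ciliated genes fell in 13 of 13 and in 6 of 13. T cell genes fell in 10 of 20 and in 1 of 20, and cardiac muscle genes in 9 of 10 (median −1.50) and in 0 of 10. Day and treatment cannot be told apart in that comparison.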

How the data were processed

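The authors deposited raw counts of reads per gene for all lung libraries of the series, per the labels, made from poly-A RNA. The submitters' processing notes name STAR 2.5.2, RSEM 1.3.0 and featureCounts 1.5.1, with builds hg38, GRCh38 and GRCm38 in no stated role; strand and multi-mapping settings are not given in the sources used here. Names and GRCm38 positions came from GENCODE M21.

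Genes passing filterByExpr (minimum count 10, minimum total 15) were fitted with edgeR 4.0.16 in R 4.3.3: TMM scaling, 1 coefficient for each of 26 groups, robust quasi-likelihood F test, Benjamini-Hochberg adjustment over 18396 genes, called under 0.05. A ± beside a log2 fold change is its standard error, |log2 fold change| over the square root of F, with a spread estimated over all libraries of the series. CPM are edgeR's, scaled by TMM. List scores used log2 CPM with a prior count of 2. The fit was tested on simulated data. Leave-one-out fits kept the whole fit's dispersion trend.

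The comparison, the 47 lists and the naming rule were chosen with earlier results of these data known. Some lists share genes, among them Ctsd, Atp6v0d2, Plin2, Il33 and Chad, so counts of different lists are not separate evidence. Named were the 12 largest rises and 12 largest falls without overlap above an average log2 CPM of 1, a panel, up to 4 members per list with the smallest p (2 where none was called) and the 5 largest differences each way between days; genes given as values of a list and the promoter motif were chosen after values were seen. Alternatives were RLE scaling, no filter, DESeq2 1.42.0, the compared groups alone, a clock term, a term for library run, each run alone, untreated controls, and each lung left out; added after seeing the data was leaving out saline replicates 2 and 6. The labels do not say whether libraries of a group came from separate mice, so p-values measure the spread between these samples.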

Additional observations from a re-analysis of the deposited data

Results flagged for a closer look

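In the 6 bleomycin lungs 48 of the 197 named genes were examined for a lung standing apart, those of the fixed panel and of the largest rises and falls, and 1 had a lung standing apart from the other 5: Sftpc, the surfactant gene of type 2 cells, had 12077.5 CPM in bleomycin replicate 6 and 15231 to 16718 CPM in the others. Chance flags about 1 in 20 such groups. Saline lungs, 11 in number, were not examined this way.

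The bleomycin effect differed between day 56 and day 14 in 4866 genes of old lungs, by the test of the difference itself. The 5 largest each way were taken above an average log2 CPM of 1, leaving out antigen-receptor genes, predicted genes and pseudogenes. The log2 differences (day 56 minus day 14) were 2.69 for Jchain, 2.08 for Cacna1h, 2.0 for Derl3, 1.80 for Ckmt2 and 1.77 for Mb. They were −3.89 for Hbb-bt, −3.73 for Alas2, −3.59 for Hbb-bs, −3.45 for Hba-a1 and −3.44 for Hba-a2.

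Between day 56 and day 42 the effect differed in 19 genes. Under the same limits the log2 differences (day 56 minus day 42) with the largest size were 2.60 for Ido1, 1.92 for Gbp4, 1.86 for Zbp1, 1.86 for Olfr56, 1.79 for Ifi27l2a and −0.37 for Src. Outside those limits Cabp4 (4.10), Sh2d6 (3.73), Gbp10 (3.71), Nccrp1 (2.58), the pseudogene Gm12250 (2.38) and the antibody segment Igkv6-17 (−4.58) were also called.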

How the results depend on the processing

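Of 197 named genes 73.6% were called at day 56. Of those, 25.5% (37 genes) lost the call in at least 1 of 17 fits that left out a lung, 18.6% (27) with the clock term, 31.7% (46) with the first run of library numbers alone and 73.8% with the second alone, and 0 changed direction. The 2543 calls were 2526 with RLE scaling (2499 shared), 2580 with DESeq2 (2490 shared), 2539 with a run term and 1866 with no filter, where the lower genes were 714 and not 1111. The compared groups alone gave 4201 (2189 higher, 2012 lower), of which 2389 were shared. The first run of library numbers alone gave 1385 (816 higher, 569 lower), the second alone 196 (169 higher, 27 lower), and untreated lungs as controls 3954 (2109 lower). Leaving out 1 lung gave 1487 to 2965 genes, 964 to 1573 higher and 498 to 1392 lower, the fewest without bleomycin replicate 2 (higher genes, replicate 5). Without saline replicates 2 and 6, chosen after seeing the data, 2205 were called. The single runs held fewer libraries, 3 bleomycin and 6 saline in the first and 3 and 5 in the second. The cause of these differences was not tested.

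The age difference had 0 calls, 3 with DESeq2, 3 with the groups alone and 0 to 3 with a lung left out. The day-56 minus day-14 difference had 3142 to 6093 calls with a lung left out, the fewest without bleomycin replicate 6 of day 14. The day-56 minus day-42 difference had 19, 0 with no filter, 0 with the groups alone, 8 with the clock term, 40 with DESeq2 and 0 to 198 with a lung left out. With a lung left out the day-14 difference ran between −4.69 and 0.076 for Hbb-bt, −4.50 and 0.64 for Alas2, −3.999 and 0.25 for Hba-a1 and −3.93 and 0.12 for Hba-a2, changing sign without bleomycin replicate 3 of day 14. No paired analysis was possible because replicate numbers follow accession order and pair no lungs.

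Counts of 17.8 to 23.2 M per lung left genes under the filter untested, among them Rag1, Dntt and Ptcra of the thymus list.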
